A study of Mus musculus with 2 samples.

Results

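The genes described here were 10 core clock genes: the activators Clock and Npas2, the repressors Per1, Per2, Per3, Cry1 and Cry2, the nuclear receptors Nr1d1 and Nr1d2, and the output factor Dbp. They were chosen by name and not by a cut on any measured value, though with earlier results of these data known. All 10 were listed in both heart libraries, among the 24015 genes listed for the adult heart and the 22691 for the aged heart. They were followed in single-nucleus RNA-seq of the heart of 1 adult female mouse of 9 weeks and 1 aged female mouse of 78 weeks. Both animals were F1 hybrids of a BL6 mother and a CAST father. The genotype field of the labels gives C57BL/6JxCAST/EiJ for both, whereas the breed field names a C57BL/6J∆Xist-/+ mother, and the study describes the hearts as wild type. The ages are those of the labels, although a different week number stands in the deposited name of the aged data. The hearts had been flash-frozen, nuclei were sorted on the DNA dye DRAQ7 and libraries were made with 10x 3′ v3.1 chemistry, and the reads analysed here came from nuclei of all cell types in which the BL6 X chromosome was the active one. Each read was counted for the BL6 or the CAST allele by the SNPs it covered.

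The circadian clock of mammals is a feedback loop of transcription that runs in almost every cell, heart muscle included. CLOCK or its relative NPAS2 pairs with ARNTL (BMAL1), binds E-boxes and switches on the Per and Cry genes, whose proteins return to the nucleus and shut the activators down. The same activators switch on Nr1d1 and Nr1d2, which encode the heme-binding repressors REV-ERBα and REV-ERBβ that silence Arntl, Clock and Npas2, and Dbp, which carries the rhythm to output genes through D-boxes. The level of most of these RNAs therefore depends on the hour of the day. The study housed its animals under a 12-h light/dark cycle, and the hour at which each heart was taken is not given in the sources used here, so age and hour of collection cannot be told apart for any value below.

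The proximal promoters are shown because the clock acts through short motifs in them. RefSeq entries on GRCm38.p6 matched 9 of the 10 genes and did not include Per2, and the 250 bases before the annotated start were searched on both strands for the E-box CACGTG (in 6.02% of 32851 promoter entries), its variant CACGTT (3.85%), the D-box TTATGTAA (0.819%), the REV-ERB motif in its short form TAGGTCA (2.23%) and the CRE TGACGTCA (1.55%). Capitals mark each match to one of these motifs, and no 2 matches overlapped in the windows printed. Nr1d1, the one of the 10 genes with the largest ratio between the libraries, is followed by Per1 and Cry1, which hold an E-box, by Ciart, a repressor of the loop that holds 3, by Per3, which holds the D-box, and by Nr1d2, which holds none of them.
Nr1d1 promoter, chr11:98775378-98775627, minus strand: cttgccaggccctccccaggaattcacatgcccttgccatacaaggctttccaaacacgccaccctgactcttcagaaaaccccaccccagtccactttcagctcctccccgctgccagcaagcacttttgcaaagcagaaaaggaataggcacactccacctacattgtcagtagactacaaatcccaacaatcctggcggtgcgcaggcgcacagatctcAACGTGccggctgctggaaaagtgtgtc
Per1 promoter, chr11:69098699-69098948, plus strand: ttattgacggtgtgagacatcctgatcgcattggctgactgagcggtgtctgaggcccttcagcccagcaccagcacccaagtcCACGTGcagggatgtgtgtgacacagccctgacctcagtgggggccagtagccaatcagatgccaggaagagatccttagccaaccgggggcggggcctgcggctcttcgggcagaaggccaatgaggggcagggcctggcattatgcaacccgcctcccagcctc
Cry1 promoter, chr10:85185055-85185304, minus strand: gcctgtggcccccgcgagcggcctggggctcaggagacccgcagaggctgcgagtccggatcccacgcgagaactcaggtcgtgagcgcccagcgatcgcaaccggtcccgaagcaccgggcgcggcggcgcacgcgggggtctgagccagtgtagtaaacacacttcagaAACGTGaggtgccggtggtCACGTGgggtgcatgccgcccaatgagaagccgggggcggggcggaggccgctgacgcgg
Ciart promoter, chr3:95882229-95882478, minus strand: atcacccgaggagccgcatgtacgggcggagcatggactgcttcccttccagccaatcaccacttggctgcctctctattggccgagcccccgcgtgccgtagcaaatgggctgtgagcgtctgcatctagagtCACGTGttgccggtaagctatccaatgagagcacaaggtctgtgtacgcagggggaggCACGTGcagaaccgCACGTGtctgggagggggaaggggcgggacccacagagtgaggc
Per3 promoter, chr4:151044666-151044915, minus strand: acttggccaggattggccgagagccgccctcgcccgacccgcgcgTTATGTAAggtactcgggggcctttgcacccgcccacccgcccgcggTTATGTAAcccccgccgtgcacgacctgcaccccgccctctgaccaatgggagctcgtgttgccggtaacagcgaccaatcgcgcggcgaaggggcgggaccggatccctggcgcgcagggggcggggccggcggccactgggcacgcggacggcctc
Nr1d2 promoter, chr14:18239107-18239356, minus strand: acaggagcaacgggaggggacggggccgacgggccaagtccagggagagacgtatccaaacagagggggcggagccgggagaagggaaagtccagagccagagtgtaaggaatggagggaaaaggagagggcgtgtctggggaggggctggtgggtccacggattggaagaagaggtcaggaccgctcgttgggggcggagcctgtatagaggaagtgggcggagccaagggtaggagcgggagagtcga

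The E-box variant of Nr1d1 lay 28 bases before its start. The E-box of Per1 began 166 bases before the start, that of Cry1 60 bases before it with a variant at 79 bases, and the D-boxes of Per3 began at 205 and 158 bases. The variant was also found in Cry2, 166 bases before its start. Some genes had several entries: of the 2 for Per1, the one with the E-box is printed and the other, at chr11:69099902-69100151, held none of the motifs. Thus, over any of their entries, 2 of the 9 genes held the E-box, 3 its variant, 1 the D-box and none the short REV-ERB motif or the CRE. A match is only a run of letters, and its absence from this window says nothing on a motif elsewhere in the gene. Whether such matches go with a gene's ratio between the libraries was not tested.

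The adult library held 9747535 reads over SNPs and the aged library 5805807, and reads were scaled to reads per 1000000 reads of the library (RPM). With 1 library per age there was no spread between replicates, so no test between ages was made. Intervals are 95% intervals, exact Poisson for RPM and exact conditional binomial for ratios, and cover counting error only. A gene was called higher in the aged library at an aged to adult RPM ratio of 1.5 or more and lower at 0.667 or less. Calls were made over 12390 autosomal genes with at least 20 reads in each library. The median ratio of these genes was 1.17 (0.22 on the log2 scale), so the typical gene lay slightly above 1 in RPM. Ratios relative to this shift, scaled by the median of the ratios, are given beside those in RPM.

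The clock genes differed little as a sum between the hearts, while single genes lay far apart. The 10 genes held 10489 adult and 6919 aged reads, or 1076 and 1192 RPM for a ratio of 1.11 (1.07-1.14), and Per3 alone gave 58.6% and 53.3% of them. Nr1d1 and Per2 were called higher in the aged heart, which is 2 of 10 genes against 28.3% of all genes tested. Npas2 alone was called lower, which is 1 of 10 against 11.7%. The median ratio of the clock genes was 1.09 (0.12 on the log2 scale). The interval of the ratio lay wholly above 1 for 5 of them (Per1, Per2, Cry1, Cry2 and Nr1d1) and below 1 for 2 (Clock and Npas2), against 42.6% and 20.6% of all genes tested. These shares were close to or below those of all genes, so the clock genes are described one by one and not as a set.

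**Figure D1:**
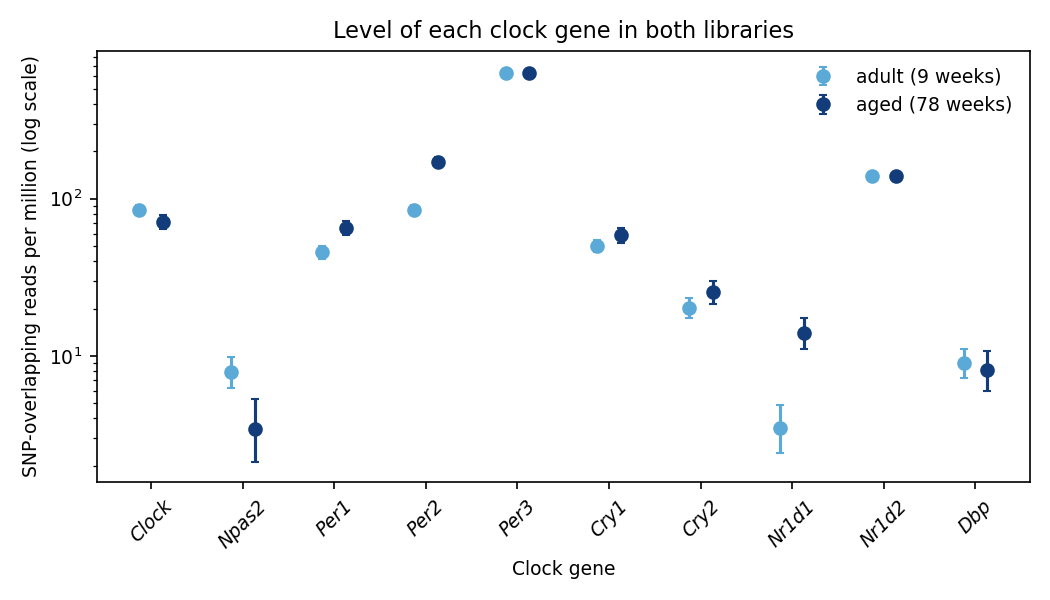
Level of each clock gene in the adult and the aged heart library, in RPM on a log axis, where points are the single library of each age and bars are exact Poisson 95% intervals. Nr1d1 (3.49 and 14.0) and Per2 (85.1 and 172) sit higher and Npas2 (7.90 and 3.44) lower in the aged library, whereas Per3 and Nr1d2 coincide.

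Of the activators, Clock encodes the DNA-binding partner of ARNTL in most tissues. It had 829 adult and 413 aged reads, or 85.0 RPM (79.4-91.0) and 71.1 RPM (64.4-78.3). The intervals did not overlap and the ratio was 0.836 (0.741-0.942), short of a call, with 0.862 on the BL6 and 0.811 on the CAST allele. Relative to the shift of all genes it was 0.716. Npas2, the relative that can stand in for Clock, was the lowest of the members per length and lay lower in the aged heart. It had 77 adult reads, or 7.90 RPM (6.23-9.87), and 20 aged reads, or 3.44 RPM (2.10-5.32). The ratio was 0.436 (0.252-0.721), with 3.27% of the genes tested below it, and 0.373 relative to the shift. The alleles gave 0.513 (0.236-1.03) from 36 and 11 BL6 reads and 0.369 (0.157-0.770) from 41 and 9 CAST reads. With 20 aged reads Npas2 stood exactly at the minimum for a call.

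The Per genes, whose proteins form the core of the repressor complex, differed from one another. Per1, an early-responding gene that light and hormones also induce, had 444 adult and 380 aged reads, or 45.6 RPM (41.4-50.0) and 65.5 RPM (59.0-72.4). Its ratio was 1.44 (1.2497-1.65), just under the call, and 1.23 relative to the shift. The BL6 ratio of 1.65 (1.36-2.002) lay past the fold and the CAST ratio of 1.24 (1.01-1.52) did not, with intervals that overlapped. Per1 lay below 1, at 0.906, when the libraries were scaled to fibroblast markers.

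Per2 was higher in the aged library on both alleles. It had 830 adult reads, or 85.1 RPM (79.5-91.1), and 1001 aged reads, or 172 RPM (162-183). The ratio was 2.02 (1.84-2.22) in RPM and 1.73 relative to the shift. BL6 reads went from 533 to 571 for a ratio of 1.80 (1.60-2.03), and CAST reads from 297 to 430 for a ratio of 2.43 (2.09-2.83). So the ratio was larger on the CAST allele, with intervals that did not overlap. Of the genes tested, 88.9% had a ratio below that of Per2, so many others lay as high or higher. On the fibroblast scale its ratio was 1.28 and the call was lost.

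Per3, the Per gene that is least needed for rhythm, was by far the most abundant. It had 6148 and 3686 reads, or 631 RPM (615-647) and 635 RPM (615-656), and a ratio of 1.01 (0.966-1.05). In RPM its alleles lay on opposite sides of 1, with a BL6 ratio of 1.08 (1.03-1.14) and a CAST ratio of 0.901 (0.844-0.962). Both lay below the median ratio of all genes, 1.17, so only the difference between the alleles is free of the scale. Relative to the shift the ratio of Per3 was 0.862.

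The Cry genes encode the partners of PER that block CLOCK and ARNTL directly. Cry1 had 489 and 340 reads, or 50.2 and 58.6 RPM, with a ratio of 1.17 (1.01-1.34) that equalled the shift of all genes and became 0.999 relative to it. Cry2 had 197 and 147 reads, or 20.2 and 25.3 RPM, with a ratio of 1.253 (1.00-1.56) and 1.07 relative to the shift. Neither was called, both alleles of each lay above 1 in RPM, and both genes turned below 1 on the fibroblast scale, to 0.736 and 0.790. Most of the Cry2 reads cannot be placed with certainty, because D930015M05Rik lies wholly within Cry2 and its reads equalled 85.3% of those of Cry2 at 9 weeks and 83.7% at 78 weeks.

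The nuclear receptors parted. Nr1d1 (REV-ERBα) had 34 adult reads, or 3.49 RPM (2.42-4.87), and 81 aged reads, or 14.0 RPM (11.1-17.3). The intervals lay far apart, and the ratio of 4.0 (2.65-6.16) was matched or exceeded by only 107 of the 12390 genes tested, Nr1d1 included. Relative to the shift it was 3.42. Both alleles showed it, with 17 and 38 BL6 reads for a ratio of 3.75 (2.07-7.09) and 17 and 43 CAST reads for a ratio of 4.25 (2.37-7.94). Nr1d2 (REV-ERBβ), its close relative, had 1353 and 804 reads, or 139 RPM (132-146) and 138 RPM (129-148). Its ratio was 0.998 (0.913-1.09) in RPM and 0.854 relative to the shift. It lay above 1 on the cardiomyocyte scale alone, at 1.09, and at 0.872 on that scale without Ttn.

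Dbp, a transcription factor whose RNA swings widely over the day, was low. It had 88 adult reads, or 9.03 RPM (7.24-11.1), and 47 aged reads, or 8.10 RPM (5.95-10.8). The intervals overlapped almost fully, with a ratio of 0.897 (0.615-1.29), and 0.768 relative to the shift. A change of the size seen for Nr1d1 lay outside the interval for Dbp.

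**Figure D2:**
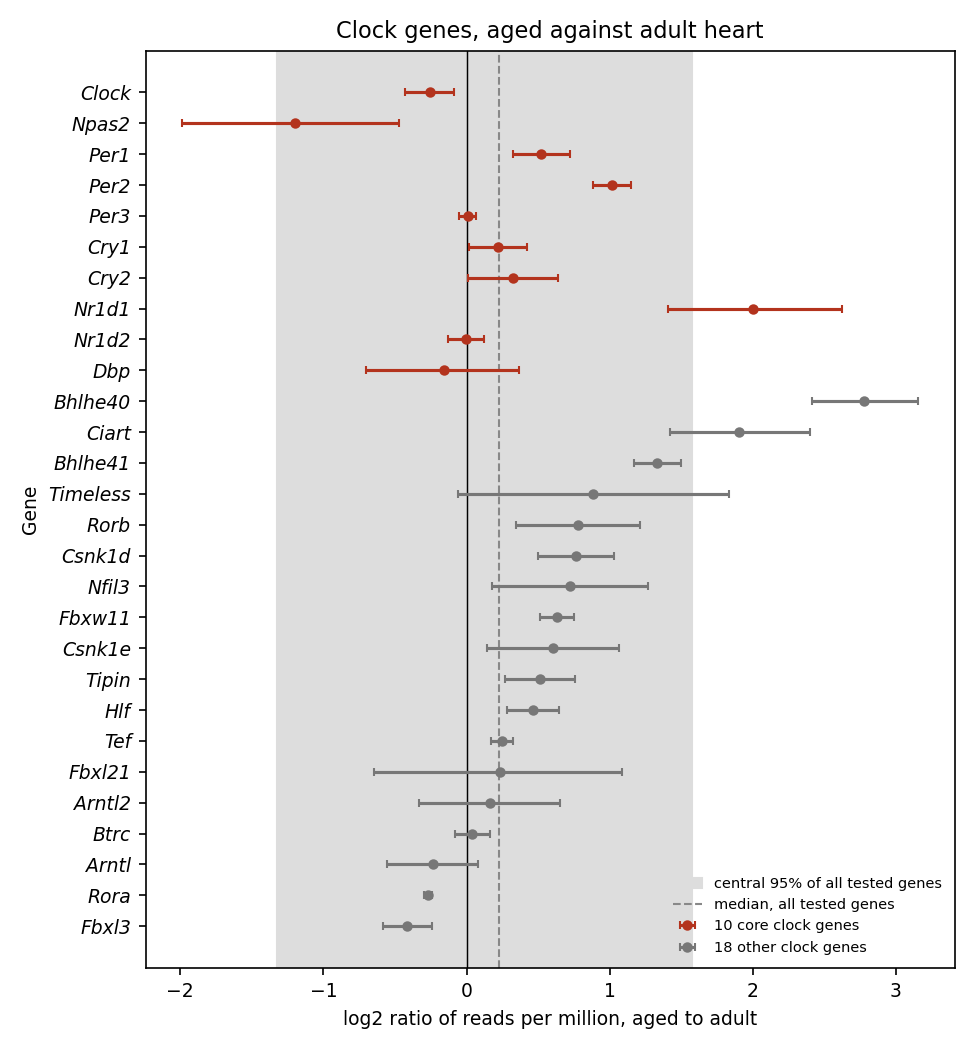
Log2 of the aged to adult RPM ratio (x axis) for each of the 10 clock genes and 18 of the other clock genes, with exact 95% intervals for counting error, a grey band for the central 95% of the 12390 genes tested and a dashed line at their median. Nr1d1, Bhlhe40 and Ciart lie beyond the band, Npas2 lies lowest, and Per3, Nr1d2 and Cry1 sit near 0 or the median, where the side depends on the scale.

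Both alleles passed the fold upward for 2 clock genes, Nr1d1 and Per2, against 17.7% of all genes tested, and downward for 1, Npas2, against 7.68%. In RPM, Per3 and Nr1d2 had BL6 and CAST ratios on opposite sides of 1, and the other clock genes had both on the same side. For Per3 and Nr1d2 the ratios of both alleles lay below the median ratio of all genes, 1.17, so their sides depend on the scale. The share of all genes with both on the same side was not computed. The alleles share their nuclei and library and are not replicates of an age.

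**Figure D3:**
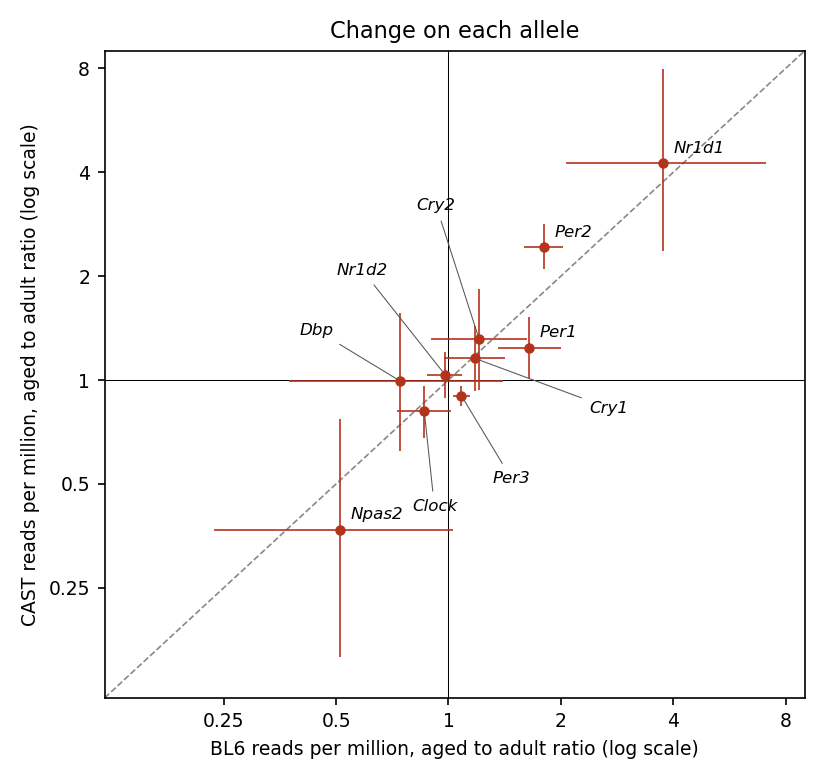
Aged to adult ratio of each clock gene from BL6 reads (x axis) and from CAST reads (y axis), both on log axes, with exact 95% intervals for counting error and a dashed line of equal ratios. Nr1d1 and Per2 lie far up on both alleles and Npas2 far down. Per3 in RPM is above 1 for BL6 (1.08) and below 1 for CAST (0.901), and both are below the median ratio of all genes (1.17).

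Some comparisons within a library do not depend on how the libraries were scaled. For every 100 reads of Nr1d2 there were 2.51 reads of Nr1d1 (1.73-3.53) at 9 weeks and 10.1 (7.92-12.7) at 78 weeks. For every 100 reads of Per3 there were 13.5 reads of Per2 (12.5-14.5) at 9 weeks and 27.2 (25.3-29.1) at 78 weeks. Thus each of these genes differed relative to its own family member. Among the 14 pairs computed, Nr1d1 to Npas2 shifted most, from 44.2 reads per 100 (28.6-66.9) to 405 (246-698). These are the members with the highest and the lowest ratio, so a wide shift was given in advance, and Npas2 had 20 aged reads. Against the other activators the shift was smaller. Reads of Nr1d1 went from 4.10 (2.82-5.78) to 19.6 (15.3-24.9) per 100 of Clock, and from 13.9 (9.40-19.9) to 65.3 (48.7-87.1) per 100 of Arntl. Dbp and Nr1d1, both targets of CLOCK and ARNTL, parted, with 259 reads of Dbp per 100 of Nr1d1 (172-397) at 9 weeks and 58.0 (39.6-84.1) at 78 weeks. Cry1 to Cry2 stayed within its interval, at 248 (210.0-294) and 231 (190.1-283). These pairs were chosen after the levels had been seen and describe the same 2 libraries.

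Levels between genes were set side by side as RPM per kb of annotated locus, which includes introns, and they also depend on how many SNPs a gene holds. In the adult library the order was Per3 (13.2), Nr1d2 (3.96), Per1 (3.07), Per2 (1.961), Dbp (1.77), Cry1 (0.940), Clock (0.894), Cry2 (0.661), Nr1d1 (0.468) and Npas2 (0.0466). The intervals of Per2 and Dbp overlapped, as did those of Cry1 and Clock and those of Cry2 and Nr1d1. In the aged library Per3 (13.3) was followed by Per1 (4.41), Per2 (3.97) and Nr1d2 (3.95), whose intervals overlapped, and then by Nr1d1 (1.87), Dbp (1.58), Cry1 (1.10), Cry2 (0.828), Clock (0.748) and Npas2 (0.0203). Nr1d1, the last but one in the adult order, thus stood above Cry1 in the aged order, and its interval overlapped that of Dbp.

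The allelic ratio is the share of BL6 reads, and its median over autosomal genes was 0.534 for the adult heart and 0.537 for the aged heart. For 3 clock genes, Per2, Per3 and Nr1d2, the Clopper-Pearson interval lay above that median in both libraries, against 13.7% of all genes tested. It lay below in both for 1 gene, Dbp, against 12.7%. Nr1d2 had the most BL6 reads by share, with an allelic ratio of 0.671 (0.645-0.696) at 9 weeks and 0.658 (0.624-0.691) at 78 weeks. Dbp leaned to CAST, with 0.386 (0.284-0.496) from 88 reads and 0.319 (0.191-0.471) from 47 reads. Reads of the overlapping Sphk2 equalled 19.3% and 63.8% of those of Dbp, so part of the Dbp reads may be shared. Nr1d2 and Dbp thus kept their side in 2 animals of the same cross, whereas Per1 lay below the median in the adult library alone, at 0.482 (0.435-0.530) and then 0.553 (0.501-0.603).

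The allelic ratio differed between the ages without overlap of the intervals for 2 clock genes, Per2 and Per3, against 11.8% of all genes tested. Per2 went from 0.642 (0.608-0.675) to 0.570 (0.539-0.601), a change, adult minus aged, of 0.0717 (Newcombe interval 0.0268 to 0.116), and so came nearer to the median. Per3 went the other way, from 0.580 (0.568-0.593) to 0.624 (0.608-0.640), a change of -0.0439 (-0.0637 to -0.0239). The remaining allelic ratios were 0.503 and 0.518 for Clock, 0.468 and 0.550 for Npas2, 0.560 and 0.565 for Cry1, 0.579 and 0.558 for Cry2, and 0.50 and 0.469 for Nr1d1. The intervals of these genes overlapped between the libraries.

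**Figure D4:**
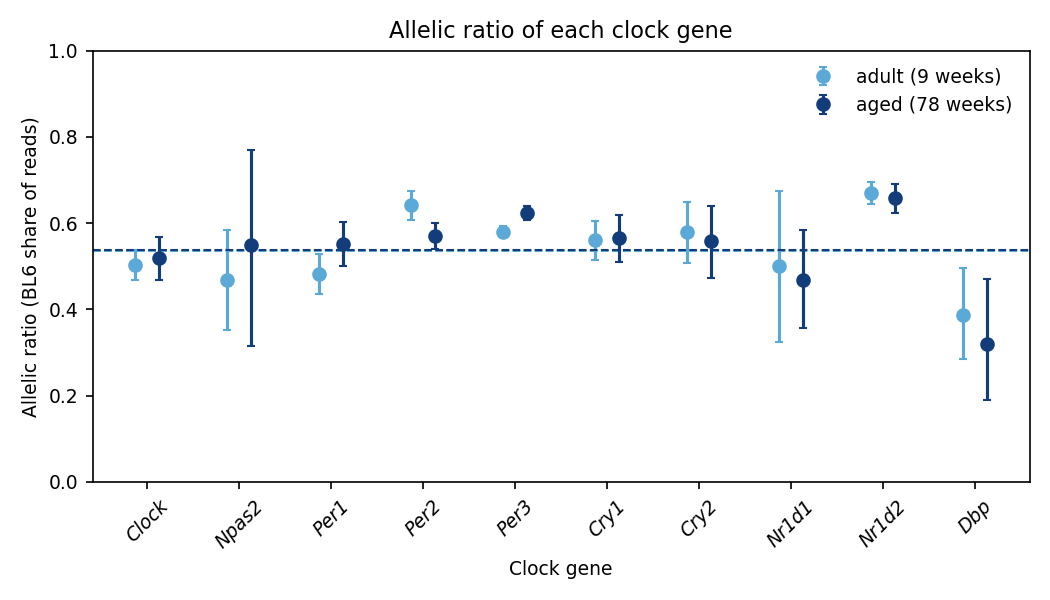
Allelic ratio (BL6 share of reads, from 0 to 1) of each clock gene in the adult and the aged library, with Clopper-Pearson 95% intervals for counting error and a line at the autosomal median of each library (0.534 and 0.537). Per2 moves toward the median and Per3 away from it, and Nr1d2 and Dbp stay on opposite sides of it.

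On GRCm38 the 10 loci lay on 8 chromosomes, Npas2 (chr1:39193715-39363240) and Per2 (chr1:91415977-91459402) sharing chromosome 1, and Per1 (chr11:69095138-69109965) and Nr1d1 (chr11:98767932-98775377) sharing chromosome 11. The others were Cry2 (chr2:92403646-92434214), Per3 (chr4:150997018-151044723), Clock (chr5:76209868-76305000), Dbp (chr7:45705093-45710203), Cry1 (chr10:85131700-85185054) and Nr1d2 (chr14:18204056-18239106). Of the 10 genes, 6 overlapped another listed locus, against 41.5% of the genes tested, and the counting is not stated to use strand, so shared reads cannot be told apart there. Thra, the thyroid hormone receptor gene that ends over the end of Nr1d1, shared 1075 bases with it and had 324 and 208 reads, with a ratio of 1.08 (0.901-1.29). Its reads outnumbered those of Nr1d1 in both libraries and did not show the difference seen for Nr1d1. Gm31862, 79 bases from Nr1d1, had 22 and 39 reads and a ratio of 2.98 (1.72-5.27).

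Gm35591 lay wholly within Per2 and its 158 and 165 reads equalled 19.0% and 16.5% of those of Per2. Without them Per2 kept a ratio of 2.09 (1.88-2.32), and its allelic ratio became 0.696 (0.660-0.731) and 0.627 (0.593-0.660), so its difference did not rest on that locus. Uts2 within Per3 held 11 and 4 reads, and Gm7467 shared 119 bases with Clock and held 10 and 5. At Dbp, Sphk2 overlapped by 741 bases and went from 17 to 30 reads, and Car11, 421 bases away, went from 31 to 79 reads for a ratio of 4.28 (2.79-6.71). Dbp therefore stood beside loci that were higher in the aged library, but was not itself called. Grin2d, 121679 bases away on the other side, had a ratio of 2.37. Beside Clock, Exoc1 at 224306 bases was lower, at 0.588. Beside Per1, Cntrob at 189525 bases was lower, at 0.519, as were Btbd11 beside Cry1 at 201716 bases, at 0.477, and Thrb beside Nr1d2 at 163958 bases, at 0.578. Beside Npas2, Tbc1d8 at 8254 bases was also lower, at 0.577, whereas Pdcl3 at 196478 bases was higher, at 2.04.

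The other clock genes numbered 19, all of them tested. Of these, 9 were called higher and 1 lower against the same 28.3% and 11.7% of all genes, and the median ratio was 1.43. When scaled to the median of ratios or with the TMM factor, 4 were higher and 2 lower. Bhlhe40, which encodes the repressor DEC1 that competes for E-boxes, went furthest, from 77 to 314 reads, or 7.90 to 54.1 RPM, with a ratio of 6.85 (5.32-8.90). Bhlhe40 overlaps the listed locus 0610040F04Rik, so shared reads cannot be told apart there. Its relative Bhlhe41 (DEC2) went from 491 to 737 reads, or 50.4 to 127 RPM, with a ratio of 2.52 (2.25-2.83). Ciart, the repressor whose promoter is printed above, went from 53 to 118 reads, or 5.44 to 20.3 RPM, with a ratio of 3.74 (2.68-5.27). These are the furthest genes of the list, and other repressors of the loop were not called, among them Per1, Per3, Cry1, Cry2 and Nr1d2.

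The locus C920021L13Rik holds Ciart whole, and without the reads of Ciart its count went from 50 to 45, a ratio of 1.51 (0.987-2.31). Rorb, which encodes a nuclear receptor, had 91 and 93 reads and a ratio of 1.72 (1.27-2.32). Timeless had 20 and 22 reads, and its interval of 0.962 to 3.57 held 1. Arntl, the partner of CLOCK and the best known target of REV-ERB, had 245 and 124 reads, or 25.1 RPM (22.1-28.5) and 21.4 RPM (17.8-25.5), with a ratio of 0.850 (0.679-1.06) that was not called. Arntl lies outside the naming rule and is given because it completes the activator pair.

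Of 14 genes listed by name as candidate outputs of the heart clock, 13 were tested. Of these, 2 were called higher and 6 lower, against 28.3% and 11.7% of all genes. Their median ratio of 1.17 equalled that of all genes, and 7 of the 13 lay above 1. The furthest below 1 were genes of fuel use. Ucp3, a mitochondrial carrier, went from 388 to 60 reads with a ratio of 0.260 (0.194-0.341). Pdk4, a kinase that inhibits pyruvate dehydrogenase, went from 1784 to 283 reads with a ratio of 0.266 (0.234-0.302). Nampt, the enzyme of NAD salvage that CLOCK and ARNTL drive, had a ratio of 0.471 (0.428-0.518) and Dgat2, of triglyceride synthesis, 0.545 (0.462-0.640). Leo1 had 0.568 (0.400-0.792), and Klf10, an early-responding zinc finger gene, went from 86 to 144 reads with a ratio of 2.81 (2.14-3.72).

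Genes that follow daily hormones, body temperature or handling are given beside the clock genes, and each count stands against the 28.3% higher and 11.7% lower of all genes. Of 8 glucocorticoid response genes tested, 3 were called higher, 1 lower and 4 neither, near those shares. Fkbp5, a standard marker of glucocorticoid action, went from 223 to 417 reads with a ratio of 3.14 (2.66-3.71), Cdkn1a had 2.45 (1.56-3.88) and Zbtb16 2.10 (2.02-2.18), while Klf9 had 0.590 (0.492-0.704). Per1 is itself on this list. Of 7 heat shock and temperature genes tested, 4 were called higher, 0 lower and 3 neither, among them the chaperone gene Hsph1 at 2.58 (1.54-4.41) and Hspb1 at 2.03 (1.62-2.54), then Hspa4 at 1.73 and Hsp90aa1 at 1.51. Of 10 immediate early genes only 4 had enough reads, and all 4 were called higher, Jun at 2.96 (1.69-5.32), Ier2 at 2.37 (1.496-3.79), Btg2 at 1.84 and Zfp36 at 1.73. The counts for these lists are in RPM and were not repeated on other scales, so calls near the fold can depend on the shift of all genes. The part of these lists in the levels of Per1, Per2 and Nr1d1 was not tested.

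The makeup of the libraries differed as well. The 8 cardiomyocyte markers summed to 28917 and 26391 RPM, all of them present in both libraries as the heart label has it. The lower sum rested on Ttn, the 1 of 8 that was called (0.580), and the other 7 summed to 17068 and 19520 RPM, with 6 of the 8 ratios above 1. Several other cell types of the heart also had higher sums in the aged library, from 658 to 1043 RPM for fibroblasts (4 of 6 tested markers called higher, 1 lower), 681 to 1027 for endothelial cells (4 of 8 higher), 122 to 227 for pericytes (4 of 5), 94.2 to 283 for smooth muscle (3 of 3) and 310 to 509 for macrophages (4 of 6). The sums were lower in the aged library for lymphocytes, 29.1 and then 7.75 RPM, and for mesothelial cells, 125 and then 16.0. Of the 6 lymphocyte markers only 1 was tested, Skap1, which went from 172 to 30 reads. Bcl11b went from 85 to 1, and Cd3e and Cd3g went from 9 and 5 reads to 0. Cd79a, with 9 and 9 reads, and Ms4a1, with 4 and 5, had ratios above 1, at 1.68 and 2.10. Adipocyte sums were 142 and 183 and Schwann cell sums 111 and 139. Fewer cells of a type and less RNA per cell cannot be told apart in such pooled counts, and the part of cell makeup in the clock values was not tested. Scaled to the fibroblast markers, which gives the largest downward shift of all scales tried, Nr1d1 had a ratio of 2.52 and remained called, whereas Per2 had 1.28 and lost its call. Of all genes tested, 6.17% were then higher and 40.6% lower, in place of 28.3% and 11.7%. The cardiomyocyte scale gave 35.8% and 8.91% with Ttn and 19.3% and 17.3% without it, the TMM factor 18.5% and 17.9%, the median of ratios 18.0% and 18.3%, and leaving out the 10 genes with the most reads 27.3% and 12.2%.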

How the data were processed

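Nuclei of 1 adult and 1 aged heart were analysed as 1 pooled library per age, grouped by the age in the labels. The authors aligned reads to GRCm38 with Cell Ranger 7.1.0 (Seurat 5.1.0 is also named in the submitters' processing notes), kept nuclei with an active BL6 X (allelic ratio of at least 0.8) and counted reads with Allelome.PRO2. The deposited read counts per gene, BL6, CAST and total, are raw and start at a total of 1 read; each covers a SNP, so a gene's level depends on its SNPs. The deposited allelic ratio is a fraction rounded to 2 decimals and was recomputed here from the counts. The deposited allelic score was not used. DoubletFinder removed doublets from the authors' expression matrices; whether that filter also applied to the nuclei counted here is not given in the sources used here, and no doublets can be removed from pooled counts. Whether counting used strand or collapsed duplicate molecules is not given in the sources used here. Start positions in the files were counted from 0 and 1 was added. Strand was taken from GENCODE annotation.

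Reads were scaled to the total of all genes, 9747535 adult and 5805807 aged. Ratios, Clopper-Pearson, Poisson and Newcombe intervals were computed with SciPy 1.17.1 in Python 3.11.15 and tested on simulated data. edgeR 4.0.16 gave the TMM factor only. Calls used at least 20 reads in each library and a fold of 1.5. Other scales (the cardiomyocyte scale without Ttn was added after seeing the data), minimums of 1 and 100 reads, folds of 1.25 and 2, a centre of 0.5 for the allelic ratio, loci free of overlap and, for single genes, each allele alone were tried.

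The clock genes and all lists were chosen with earlier results of these data known. Named genes are the 10 clock genes, the genes of each other list past the fold (at most the 6 furthest), loci overlapping a clock gene and its nearest neighbours past the fold; Arntl and the allelic changes in the closing section were chosen after their values were seen. 1 gene of the other clock genes enters the counts but is not reported here.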

Additional observations from a re-analysis of the deposited data

How the results depend on the processing

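No paired analysis was possible because each age has 1 library, and no replicate could be left out for the same reason. Counts below are higher or lower in the aged library, and the cause of each change was not tested beyond what a setting itself does. Shares of all genes are given above for the main setting and for the fold on each scale. Counts at other folds, minimums or centres, without overlap, or on both alleles on another scale have no such share beside them. They are given as settings and not as a result on the lists. Of the 10 clock genes, 4 were higher at the smaller fold tried; 1 was higher and 0 lower with at least 100 reads; 0 of the 4 free of overlap were higher, since Nr1d1 and Per2 overlap other loci; and 1 was higher and 5 lower on the fibroblast scale, with 1 and 4 on both alleles. Of the other clock genes (9 higher, 1 lower), 4 and 2 were called with the TMM factor, 4 and 2 by the median of ratios, 3 and 5 on the fibroblast scale, 5 and 2 on the cardiomyocyte scale without Ttn (a setting chosen after seeing the data), 3 higher with at least 100 reads, 3 higher at a fold of 2, 2 lower at the smaller fold and 5 higher without overlap. Of the output genes (2 higher, 6 lower), 1 was higher with the TMM factor, the median of ratios, the fibroblast scale, the cardiomyocyte scale without Ttn, 100 reads and a fold of 2 each, 0 without overlap, and 3 lower at a fold of 2. Around a centre of 0.5 the allelic ratio was above for 5 clock genes in each library and below for 1 in the adult; without overlap 1 was above in each library, 1 below in the adult and 0 below in the aged. No ratio of the 3 called clock genes changed side of 1. Over all settings, the ratio ran from 2.52 to 4.38 for Nr1d1, from 1.28 to 2.43 for Per2 and from 0.275 to 0.513 for Npas2, whose call rests on 20 aged reads. Uncalled genes that crossed 1 were Per1 (0.906 to 1.65), Cry1 (0.736 to 1.28), Cry2 (0.790 to 1.39), Per3 (0.634 to 1.10) and Nr1d2 (0.629 to 1.09). Depth limits Nr1d1, Npas2 and Dbp, with under 100 reads in each library, most.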

Other observations

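A few clock-linked genes outside the 10 had larger changes of the allelic ratio than any of the 10, and were chosen after their values had been seen. Kcnip2, the subunit of a potassium channel whose daily rhythm in the heart is driven by Klf15, had a BL6 ratio (aged to adult, in RPM) of 0.346 and a CAST ratio of 0.995. Its allelic ratio thus went from 0.568 (0.536-0.5998) to 0.314 (0.266-0.365), a change, adult minus aged, of 0.254 (0.195 to 0.310). Klf15, a transcription factor of fuel use that glucocorticoids induce, had a BL6 ratio of 0.854 and a CAST ratio of 1.94, and its allelic ratio went from 0.494 to 0.300, a change of 0.194 (0.141 to 0.244).

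Errfi1, on the glucocorticoid list, went from an allelic ratio of 0.612 to 0.406, a change of 0.206 (0.141 to 0.269). Arntl had a BL6 ratio of 0.656 and a CAST ratio of 1.16, and its allelic ratio went from 0.616 (0.552-0.678) to 0.476 (0.385-0.567), a change of 0.141 (0.033 to 0.244), with intervals that just overlapped. In these 4 genes the BL6 share was lower in the aged library, but others of the lists went the other way. Fbxl21 went from 0.400 to 0.714, a change of -0.314 (-0.528 to -0.0368) from 30 and 21 reads, Nfil3 from 0.678 to 0.897, a change of -0.219 (-0.357 to -0.0704), and Por from 0.356 to 0.460, a change of -0.104 (-0.158 to -0.0502). Errfi1, Arntl, Fbxl21 and Por overlap other listed loci, so shared reads cannot be told apart there. Of the 50 genes tested on these lists outside the 10, the Newcombe interval of the change lay above 0 for 8 and below 0 for 5. By this rule 3 of the 10 clock genes changed, Per2, Per3 and also Per1 (-0.138 to -0.00222). The rule is looser than the lack of overlap used for the 10 above, and its share over all genes was not computed. With 1 animal per age, a difference between ages cannot be told apart from one between these animals.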
